A study of Homo sapiens with 6 samples.

Results

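Glycolysis, the supply of lactate and the switch of pyruvate dehydrogenase were examined through 32 listed genes in xenograft tumors of mice given epinephrine (Epi) or phosphate-buffered saline (PBS). The genes were listed by symbol for their role in the pathway, with earlier results of these data known, and 29 of the 32 were measured among 18132 genes on the array. SLC2A3, a glucose carrier of the cell surface, was read only by 5 sets of probes that it shares with another gene, and the lactate carriers SLC16A1 and SLC16A3 had no probes named for them, so that these 3 genes were not analysed here.

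All tumors came from MDA-MB-231, a human cell line of triple-negative breast cancer, injected with Matrigel under the skin of both flanks of NOD/SCID mice aged 4 to 6 weeks. The Epi mice received epinephrine under the skin at 2 mg/kg/day from 7 days before the tumor cells, and the PBS mice received the same volume of PBS. Primary cells of the tumors gave the RNA for 3 Epi and 3 PBS arrays of the type Affymetrix Human PrimeView, which reads each human transcript with 1 or more sets of short probes (probesets). Every tumor stemmed from 1 cell line, and the sources used here do not say whether the 3 tumors of a group grew in different mice, so that p-values measure the spread between these samples. NOD/SCID mice lack mature T and B cells but keep fibroblasts, vessels and myeloid cells, whose mouse RNA a human array reads only by cross-hybridization.

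Cells take up glucose through carriers such as SLC2A1, trap it as glucose 6-phosphate by hexokinases, split the hexose into trioses and carry these to pyruvate. Lactate dehydrogenase then reduces pyruvate to lactate, or pyruvate enters mitochondria, where the pyruvate dehydrogenase complex turns it into acetyl-CoA. Kinases of the PDK family switch that complex off and the phosphatase PDP1 switches it on again. Many tumors make lactate even in the presence of oxygen, and MYC and the hypoxia-inducible factor HIF1 are known to drive several of these genes.

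The deposited values were on a log2 scale, and each gene was represented by its brightest probeset on average over the 6 arrays. Epi was set against PBS by a linear model per gene in limma, and p-values were adjusted over all genes by the Benjamini-Hochberg method with a threshold of 0.05. As arrays of the same replicate number deviated together from their group means, a fit that takes this number as a block is given for many of the genes. It is always given where it changed a call. The labels number the replicates but do not say that the tumors were paired, and the paper names no pairing. A pair here means only the Epi and the PBS array of the same replicate number. The block was fitted because of these same values, so that calls made with it depend on that choice. The median over all probesets was 6.05, 6.40 and 6.37 in Epi replicates 1 to 3, against 5.98, 6.38 and 6.42 in PBS replicates 1 to 3. Both replicate 1 arrays stood apart in the members too, whose median level was 8.89, 10.29 and 10.01 in Epi replicates 1 to 3 and 9.04, 10.80 and 10.54 in PBS replicates 1 to 3. Epi replicate 2 carries the number 20 in its label code and Epi replicates 1 and 3 the number 10, which the labels do not explain. Of 8 mesenchymal and basal-like genes that MDA-MB-231 cells should express, all 8 had means between 8.71 and 13.98. Of 8 luminal genes that should be low, 3 lay under the level of 5.69 below which 30% of all genes lie. The others lay above it, with means over all arrays of 7.09 (ESR1), 7.37 (FOXA1), 7.50 (GATA3), 8.48 (ERBB2) and 10.70 (KRT8). KRT8, a luminal keratin, averaged 10.89 in Epi and 10.51 in PBS tumors. Of 6 leukocyte markers 4 lay under that level, and their sum ranged from 30.4 to 30.9 in Epi and from 29.2 to 32.8 in PBS tumors. The common leukocyte gene PTPRC averaged 3.47 in Epi and 3.51 in PBS tumors, while CD68, a lysosomal gene of macrophages, averaged 7.69 in Epi and 8.24 in PBS tumors and was lower in 3 of 3 pairs (-0.55, adjusted p = 0.584 with the block in limma). The leukocyte markers other than CD68 lay between -0.13 (ITGAM) and 0.09 (CSF1R), and none of them was lower in 3 of 3 pairs. Of 7 fibroblast markers 6 lay under that level and COL1A1, a collagen, averaged 6.18 in Epi and 6.11 in PBS tumors, and the sum ranged from 29.3 to 32.4 in Epi and from 30.4 to 31.3 in PBS tumors. Of 6 endothelial markers 2 lay under it, and their sum ranged from 35.9 to 37.6 in Epi and from 34.0 to 38.5 in PBS tumors. PECAM1, one of them, averaged 7.89 in Epi and 7.45 in PBS tumors and was higher in 3 of 3 pairs (0.44, adjusted p = 0.924 with the block in limma). The other endothelial markers lay between -0.11 (KDR) and 0.04 (CDH5). No marker of any class passed the threshold in either fit, and the part of such cells in the results was not tested. In bulk samples, fewer cells of a type cannot be told apart from less RNA per cell.

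HK2, which encodes the hexokinase that many tumors rely on for the first step of glycolysis, was the 1 gene of the 29 that passed the adjusted threshold in either fit, and it was lower in Epi tumors. Its log2 value was 7.51, 7.21 and 7.90 in Epi replicates 1 to 3, against 8.48, 8.91 and 9.09 in PBS replicates 1 to 3. All 3 Epi tumors thus lay below all 3 PBS tumors. The means were 7.54 ± 0.35 in Epi and 8.83 ± 0.32 in PBS tumors (SD, n = 3 each), a log2 fold change of -1.29 or a 2.44-fold lower value in Epi tumors. The difference within replicate numbers 1, 2 and 3 was -0.97, -1.70 and -1.19. With the replicate block HK2 fell (standard error 0.21, 95% interval of -1.74 to -0.83, adjusted p = 0.00785 in limma), whereas without it the standard error was 0.28 and the adjusted p 1.00. The call was lost without pair 2, where the blocked value was -1.08 with an adjusted p of 0.144 in limma. In the fits without pair 2 or pair 3, limma gave every gene the same standard error (0.32 and 0.31). The spread of HK2 itself did not enter their p-values. Over 22 other settings the adjusted p ran between 0.00476, from the fit without pair 3, and 1.00. The call also depended on the probeset, and on the number of tests, with an adjusted p of 0.0900 in limma with the block when all probesets were tested. The other HK2 probeset read 6.83, 7.02 and 6.67 in Epi and 6.26, 7.26 and 7.41 in PBS replicates 1 to 3, so that its groups overlapped and its log2 fold change was -0.13. With the mean of both probesets and the block, HK2 stood at -0.71 (adjusted p = 0.259 in limma).

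**Figure D1:**
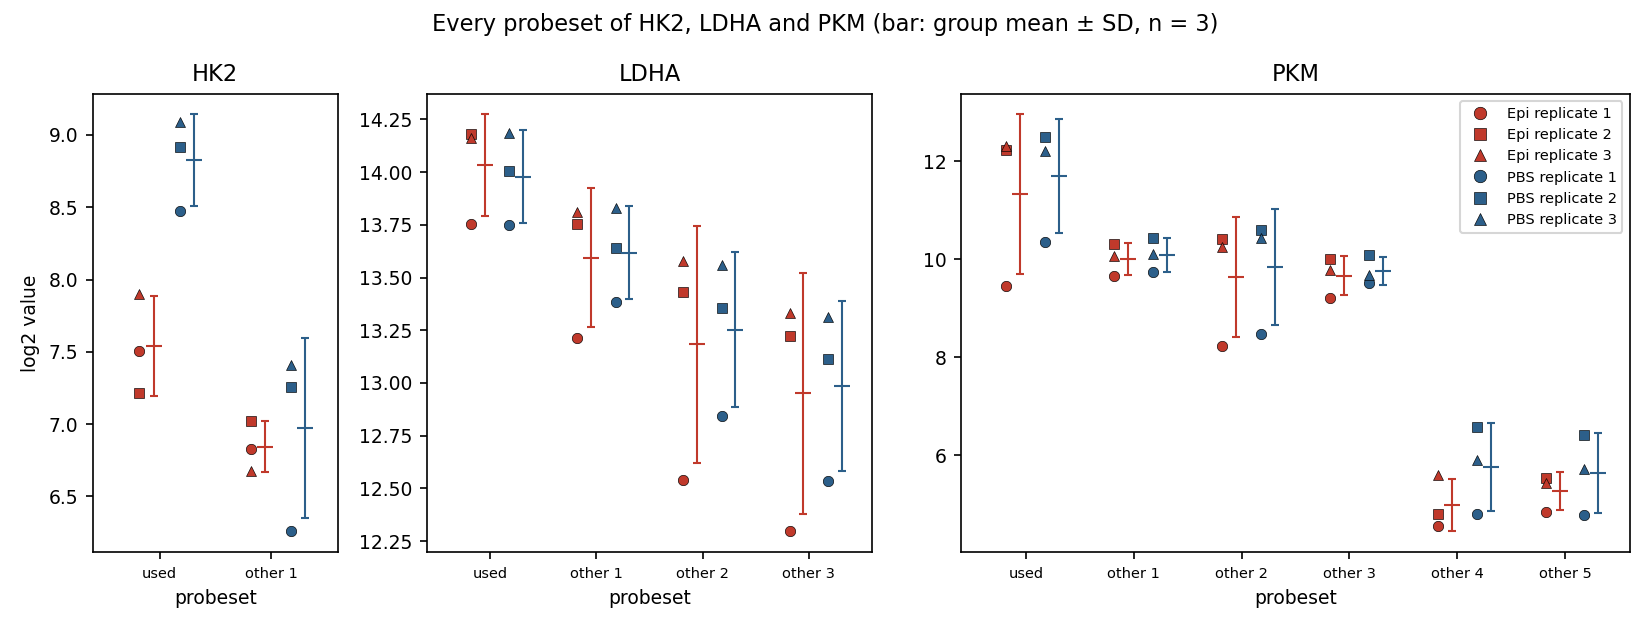
Log2 value (y axis, a separate scale per gene) of every probeset of HK2, LDHA and PKM (x axis, the one that stood for the gene marked as used) on each of the 6 arrays, Epi left of PBS, with bars for the group mean ± SD (n = 3). The groups are apart in the used HK2 probeset (-1.29) and overlap in its other one (-0.13), overlap in all 4 LDHA probesets, and in PKM the replicate 1 arrays lie lowest.

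The window upstream of HK2 is shown because it is the gene with the largest difference. Capitals mark ACGTG, a form of the core sequence bound by hypoxia-inducible factors, read on either strand, and other forms were not searched. The 250 bases before the most upstream start of HK2 lie at chr2:74833877-74834126 on the plus strand (RefSeq, GRCh38.p14). They hold ACGTG, here as its reverse complement CACGT, 229 and 48 bases before the start.
HK2: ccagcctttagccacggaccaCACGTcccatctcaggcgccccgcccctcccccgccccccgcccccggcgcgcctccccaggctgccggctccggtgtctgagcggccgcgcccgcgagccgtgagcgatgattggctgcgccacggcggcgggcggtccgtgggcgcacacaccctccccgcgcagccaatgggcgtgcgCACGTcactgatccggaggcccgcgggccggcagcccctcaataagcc
The E-box CACGTG, a palindrome that MYC with MAX can bind, has no match in this window. Over the 27 measured genes of the pathway with such a window, ACGTG occurred in 9 (33.3%), against 20.9% of the windows of 14425 genes, and CACGTG occurred in 3 (11.1%), against 7.79%. Each CACGTG holds ACGTG on both strands and was counted under both.

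The other 4 measured genes of glucose uptake and trapping did not pass the threshold in either fit. SLC2A1, the main glucose carrier of most tumor cells, had 10.52, 11.28 and 11.12 in Epi and 10.65, 11.21 and 10.84 in PBS tumors. Its log2 fold change of 0.07 had a 95% interval of -0.36 to 0.50 with the block and -0.59 to 0.73 without it. HK1, the hexokinase most tissues express, was at 10.81, 10.97 and 11.09 in Epi and 11.01, 11.74 and 11.21 in PBS tumors (log2 fold change of -0.36, standard error 0.27 without and 0.21 with the block). Its 4 probesets lay between -0.54 and -0.36, and in 2 of the 4 all Epi tumors were below all PBS tumors. HK3, a hexokinase of myeloid cells, stood at -0.16, and HKDC1, a hexokinase with a tissue-restricted pattern, at 0.10. On the replicate 1 arrays HKDC1 lay 1.57 above the other 4, against a median of -0.53 over the 29 genes.

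Counts over the 29 genes are set beside the share of all genes as a description, with no test of the list. Without the block 0 of the 29 passed the adjusted threshold, as did 0% of all genes, while at an unadjusted p under 0.05 1 (HK2) was lower, against 0.8% of all genes, and 0 were higher, against 0.529%. With the block 1 was called lower, against 0.32% of all genes, and 0 higher, against 0.353%. At an unadjusted p under 0.05 with the block, 7 of 29 were lower (HK2, PFKFB4, ENO2, ALDOC, PFKP, PDK1 and PDP1), against 3.09% of all genes, and 0 were higher, against 2.12%. In all, 20 of 29 (69%) had a log2 fold change below 0, against 54.3% of all genes, and 9 lay above 0, against 45.7%. Lower values in all 3 replicate pairs were found in 15 (51.7%), against 13.2%. PDK2 and PDK4 were the 2 that were higher in all 3 pairs, where the share of all genes was 5.71%. GPI and HK2 were the 2 genes with all Epi tumors below all PBS tumors, against 2.22% of all genes, and none had all Epi tumors above, against 0.982%. HK2 was the 1 gene over 2-fold lower, against 0.353% of all genes, and none was over 2-fold higher, against 0.436%. The 95% interval lay within a 2-fold difference either way for 15 of 29 genes without the block, against 72.8% of all genes, and for 22 of 29 with it, against 95.7%. The median log2 fold change was -0.18 (range of -1.29 to 0.55), beside -0.016 over all genes, and within replicate numbers 1, 2 and 3 it was -0.15, -0.19 and -0.16, beside 0.039, -0.047 and -0.080. Without Epi replicate 1 the median was 0.02, beside 0.049 over all genes, and without PBS replicate 1 it was -0.36, beside -0.13. Leaving out 1 array moved the value of 26 of the 29 by over 1.5 times or past 0, the exceptions being HK2, HK3 and GPI.

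**Figure D2:**
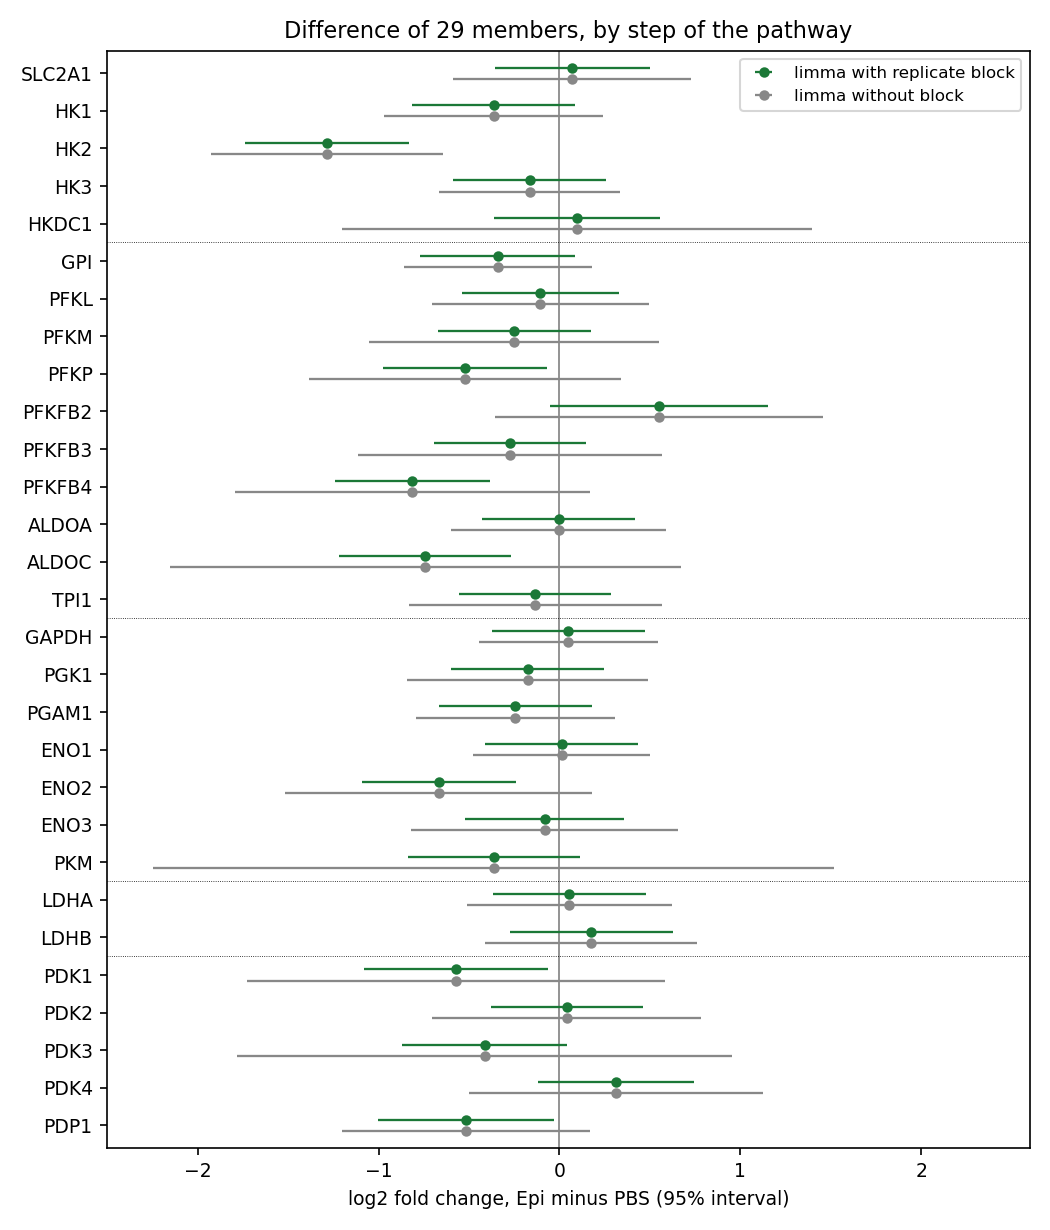
Log2 fold change (x axis, Epi minus PBS) of the 29 measured genes in the order of the pathway (y axis, dotted lines between steps), with 95% intervals from limma with the replicate block (green) and without it (grey). HK2 lies farthest from 0 at -1.29, and the intervals with the block of PFKP, PFKFB4, ALDOC, ENO2, PDK1 and PDP1 also stay below 0.

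**Figure D3:**
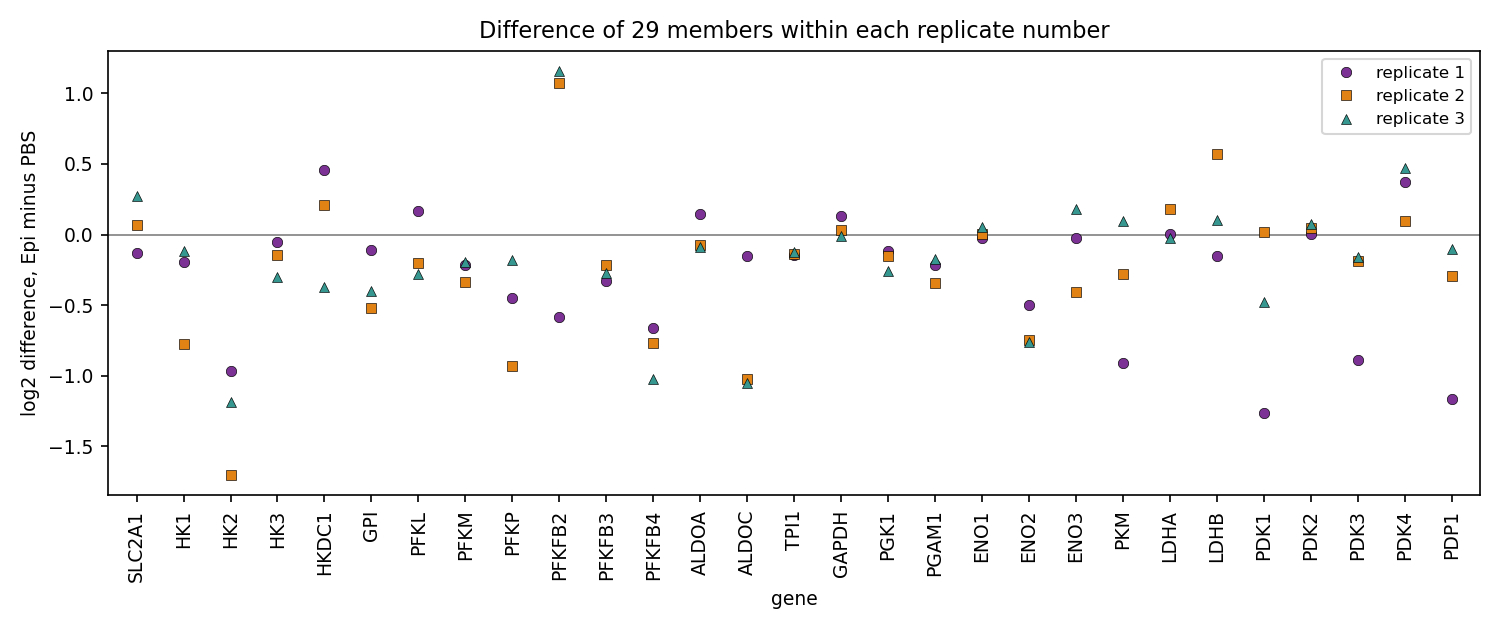
Difference Epi minus PBS on the log2 scale (y axis) within replicate number 1 (circles), 2 (squares) and 3 (triangles) for the 29 measured genes (x axis). HK2 is lowest in replicates 2 and 3 (-1.70 and -1.19), PFKFB2 lies above 1 in those 2 and at -0.59 in replicate 1, and PDK1 and PDP1 are lowest in replicate 1 (-1.26 and -1.16).

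Of the 10 genes that handle hexose phosphates, 9 had a log2 fold change below 0, against 54.3% of all genes. In all 3 pairs 7 were lower, against 13.2%, but none passed the adjusted threshold in either fit. PFKFB4, one of the bifunctional enzymes that make and degrade fructose 2,6-bisphosphate, the activator of phosphofructokinase, had the second-largest difference of the pathway. It read 7.088, 8.215 and 7.9996 in Epi replicates 1 to 3, against 7.746, 8.981 and 9.019 in PBS replicates 1 to 3. Each Epi tumor lay below the PBS tumor of its number, by 0.66, 0.77 and 1.02, while the groups overlapped. The log2 fold change was -0.81 (standard error 0.20 and adjusted p = 0.101 with the block in limma, standard error 0.43 without it), and its 4 probesets ranged from -0.81 to -0.26. PFKFB2, a bifunctional enzyme known from heart, was the gene with the largest positive value of the pathway. It had 4.77, 5.83 and 6.31 in Epi and 5.35, 4.76 and 5.15 in PBS tumors, a log2 fold change of 0.55 (standard error 0.40 without and 0.28 with the block). Its mean was under the level of 5.69, its 6 probesets ranged from -0.11 to 0.55, and its replicate 1 pair ran the other way at -0.59. With the block and without pair 1 it was called higher at 1.12 (adjusted p = 0.0337 in limma). That fit left out the pair that ran the other way, so that a rise followed from the pairs kept. PFKFB3, the bifunctional enzyme with the strongest kinase activity, stood at -0.27.

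The 3 isoforms of phosphofructokinase, which commits the hexose to glycolysis, did not pass the adjusted threshold in either fit. PFKM, the muscle isoform, read 9.79, 10.68 and 10.53 in Epi replicates 1 to 3 and 10.01, 11.01 and 10.73 in PBS replicates 1 to 3. Its log2 fold change was -0.25 with a 95% interval of -0.67 to 0.17 with the block and -1.05 to 0.55 without it. The pairs of PFKM differed by -0.22, -0.34 and -0.20. PFKP, the platelet isoform, read 9.90, 10.66 and 10.79 in Epi and 10.35, 11.59 and 10.97 in PBS tumors. Both had overlapping groups and lower values in each Epi tumor than in the PBS tumor of its number. PFKP stood at -0.52 (standard error 0.21 and adjusted p = 0.698 with the block in limma, standard error 0.38 without it), and PFKL, the liver isoform, at -0.11. GPI, which turns glucose 6-phosphate into fructose 6-phosphate, had 10.39, 10.29 and 10.14 in Epi and 10.49, 10.80 and 10.54 in PBS tumors. Its groups did not overlap, yet with 3 against 3 arrays the smallest exact permutation p is 0.1, and its log2 fold change of -0.34 had a standard error of 0.23 in limma without the block.

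Of the 2 measured aldolases, which split the hexose, neither passed the adjusted threshold with all 6 arrays. ALDOC, the aldolase known from brain, read 8.89, 10.31 and 10.01 in Epi replicates 1 to 3, against 9.04, 11.33 and 11.07 in PBS replicates 1 to 3. In replicates 2 and 3 the Epi tumors were lower by 1.02 and 1.05, and in replicate 1, where both tumors were low, by 0.15. The log2 fold change was -0.74 (standard error 0.22 and adjusted p = 0.263 with the block in limma, standard error 0.62 without it), and all 5 of its probesets were lower, from -0.74 to -0.34. Without pair 1 and with the block it was called lower at -1.04 (adjusted p = 0.0396 in limma). That fit left out the pair with the smallest difference. ALDOA, the common aldolase, read 12.73, 13.12 and 12.98 in Epi and 12.58, 13.19 and 13.06 in PBS tumors. The 95% interval of its difference was -0.43 to 0.42 with the block and -0.60 to 0.59 without it. TPI1, which interconverts the trioses, stood at -0.13. The window of 250 bases upstream of ALDOC, at chr17:28576896-28577145 and read here from the minus strand (RefSeq, GRCh38.p14), is shown as that of a gene that holds both motifs, with CACGTG 240 bases and a lone ACGTG 28 bases before the start.
ALDOC: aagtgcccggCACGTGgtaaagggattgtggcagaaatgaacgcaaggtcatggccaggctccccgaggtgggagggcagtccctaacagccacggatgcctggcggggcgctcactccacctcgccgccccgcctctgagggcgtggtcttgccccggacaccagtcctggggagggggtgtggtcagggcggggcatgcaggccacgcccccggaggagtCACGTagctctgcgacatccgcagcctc
The capitals mark both motifs, the lone one again as its reverse complement.

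From trioses to pyruvate, 7 genes were measured and none passed the adjusted threshold in either fit. In all pairs 3 (PGK1, PGAM1 and ENO2) were lower, against 13.2% of all genes. ENO2, the enolase known from neurons, read 6.77, 7.64 and 7.48 in Epi replicates 1 to 3 and 7.27, 8.39 and 8.24 in PBS replicates 1 to 3. The Epi tumors were lower than the PBS tumors of their number by 0.50, 0.75 and 0.76, with overlapping groups. The log2 fold change was -0.67 (standard error 0.20 and adjusted p = 0.260 with the block in limma, standard error 0.37 without it). ENO1, the common enolase, read 12.925, 13.054 and 13.059 in Epi and 12.952, 13.047 and 13.004 in PBS tumors. Its log2 fold change of 0.01 had a 95% interval of -0.41 to 0.43 with the block and -0.48 to 0.50 without it. GAPDH, the enzyme that makes NADH in glycolysis and a common loading control, read 14.00, 14.09 and 14.00 in Epi and 13.87, 14.06 and 14.01 in PBS tumors, a log2 fold change of 0.05. PGK1, the first step that yields ATP, stood at -0.18 with all 9 of its probesets lower (-0.47 to -0.11), PGAM1, which moves the phosphate, at -0.24, and ENO3, the muscle enolase, at -0.08.

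PKM, pyruvate kinase of tumors and muscle, varied more between replicate numbers than between treatments. It read 9.45, 12.23 and 12.31 in Epi replicates 1 to 3, against 10.36, 12.51 and 12.21 in PBS replicates 1 to 3. The replicate 1 arrays differed from the other 4 by -2.41, and the Epi from the PBS tumors by -0.36 (standard error 0.82 without and 0.22 with the block). The differences within replicate numbers 1, 2 and 3 were -0.91, -0.28 and 0.10, and the 6 probesets of PKM were all lower, between -0.77 and -0.08. The -0.77 came from a probeset with low means of 4.98 in Epi and 5.75 in PBS tumors. Another low one (5.27 and 5.63) stood at -0.37, and the brighter ones not used lay between -0.21 and -0.08. Probesets do not tell its M1 and M2 splice forms apart here, as the annotation names the gene only. Over the 29 genes the replicate 1 arrays differed from the other 4 by a median of -0.53, beside -0.28 over all genes, and were lower by over 1 in 5 (PKM, ALDOC, PDK3, PDK1 and PFKFB4), against 10.2% of all genes. The GAPDH middle control probeset read 9.18 on the Epi and 9.26 on the PBS replicate 1 array, against 14.14 to 14.23 on the other 4. The other 2 GAPDH controls fell far less. The 5' one read 13.82 and 13.73, against 13.98 to 14.08, and the 3' one 13.45 and 13.61, against 14.18 to 14.30. The part of the replicate 1 gap in the members' differences was not tested.

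**Figure D4:**
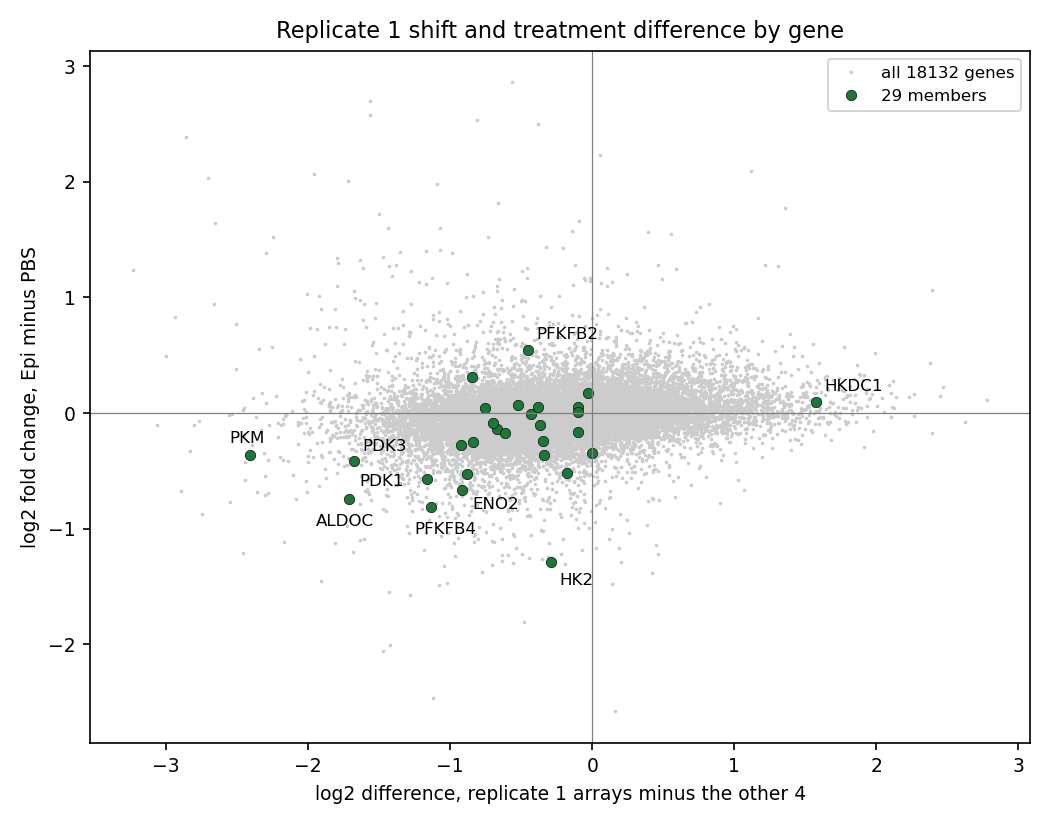
Log2 difference between the 2 replicate 1 arrays and the other 4 (x axis) against the log2 fold change Epi minus PBS (y axis) for the 29 measured genes (green) and all 18132 genes (grey). Among the 29, PKM lies farthest left at -2.41 with a fold change of -0.36, HKDC1 farthest right at 1.57, and HK2 lowest at -1.29 with a replicate gap of -0.29, and the cloud of all genes reaches beyond each of them.

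LDHA and LDHB, the subunits of the tetramer that interconverts pyruvate and lactate, did not differ beyond the spread of the tumors. LDHA, the subunit known for making lactate, read 13.75, 14.18 and 14.16 in Epi replicates 1 to 3 and 13.75, 14.00 and 14.18 in PBS replicates 1 to 3. The groups overlapped almost fully, with means of 14.03 ± 0.24 in Epi and 13.98 ± 0.22 in PBS tumors (SD, n = 3 each). The log2 fold change was 0.05 with a 95% interval of -0.51 to 0.62 without and -0.37 to 0.48 with the block, so that a 2-fold difference lay outside both. The pairs differed by 0.0061, 0.18 and -0.023, and the 4 LDHA probesets by -0.07 to 0.05. The highest value of any gene on an array was 14.49 to 14.81, and whether the LDHA probes were near saturation was not tested. LDHB read 13.11, 13.32 and 13.44 in Epi and 13.26, 12.75 and 13.34 in PBS tumors. Its log2 fold change of 0.18 had a 95% interval of -0.27 to 0.63 with the block and -0.41 to 0.76 without it. Its one pair with a gap over 0.5 was replicate 2, in which the PBS tumor was the low one.

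The upstream window of LDHA, at chr11:18394313-18394562 on the plus strand (RefSeq, GRCh38.p14), is shown against that of HK2 because it holds CACGTG and TGACGTCA, which have no match in that of HK2. CACGTG begins 185 and 87 bases, a lone ACGTG 73 bases and the cAMP response element TGACGTCA 51 bases before the start, all in capitals.
LDHA: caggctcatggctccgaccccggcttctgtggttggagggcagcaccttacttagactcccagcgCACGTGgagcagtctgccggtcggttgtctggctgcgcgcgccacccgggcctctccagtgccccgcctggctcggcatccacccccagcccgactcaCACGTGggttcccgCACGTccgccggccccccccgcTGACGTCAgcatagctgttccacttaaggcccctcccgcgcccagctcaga
Of the 27 windows, TGACGTCA was found in LDHA alone (3.7%, against 2.36% of all windows), and CACGTG in LDHA, ALDOC and GAPDH. ACGTG was found in HK2, GPI, ALDOA, ALDOC, GAPDH, PGK1, ENO2, LDHA and PDK3, whose log2 fold changes ran between -1.29 and 0.05.

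Among the 4 kinases and the phosphatase that set pyruvate dehydrogenase activity, none passed the adjusted threshold in either fit. Values below 0 were seen in 3 of the 5, against 54.3% of all genes. PDK1, the kinase known as a target of hypoxia-inducible factor, read 5.99, 7.47 and 7.89 in Epi replicates 1 to 3 and 7.26, 7.45 and 8.36 in PBS replicates 1 to 3. The Epi tumor was lower by 1.26 in replicate 1 and by 0.47 in replicate 3, and in replicate 2 the difference was 0.020. The other PDK1 probeset stood at -0.55. The log2 fold change of the used one was -0.57 (standard error 0.24 and adjusted p = 0.740 with the block in limma, standard error 0.51 without it). It was -0.011 without Epi replicate 1, -0.23 without PBS replicate 3 and -0.96 without Epi replicate 3. PDK4, the kinase that fasting and glucocorticoids are known to raise, read 5.54, 6.15 and 6.53 in Epi and 5.17, 6.06 and 6.06 in PBS tumors. It was higher in each Epi tumor than in the PBS tumor of its number, by 0.37, 0.09 and 0.47, with overlapping groups and a second probeset at 0.00. The log2 fold change was 0.31 (standard error 0.20 with the block and 0.36 without it). It was 0.015 without PBS replicate 1, 0.084 without Epi replicate 3 and 0.58 without Epi replicate 1. PDK2, the kinase of most tissues, stood at 0.04, and PDK3 at -0.41 with a difference of -1.68 between the replicate 1 arrays and the other 4.

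PDP1, the phosphatase that turns the complex back on, read 6.37, 6.75 and 7.31 in Epi replicates 1 to 3 and 7.53, 7.04 and 7.41 in PBS replicates 1 to 3. The groups overlapped, and most of the difference came from replicate 1, with pairs at -1.16, -0.29 and -0.10. Its log2 fold change was -0.52 (standard error 0.23 and adjusted p = 0.853 with the block in limma, standard error 0.30 without it). Both of its other probesets were at 0.01, with low group means between 5.36 and 5.45.

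**Figure D5:**
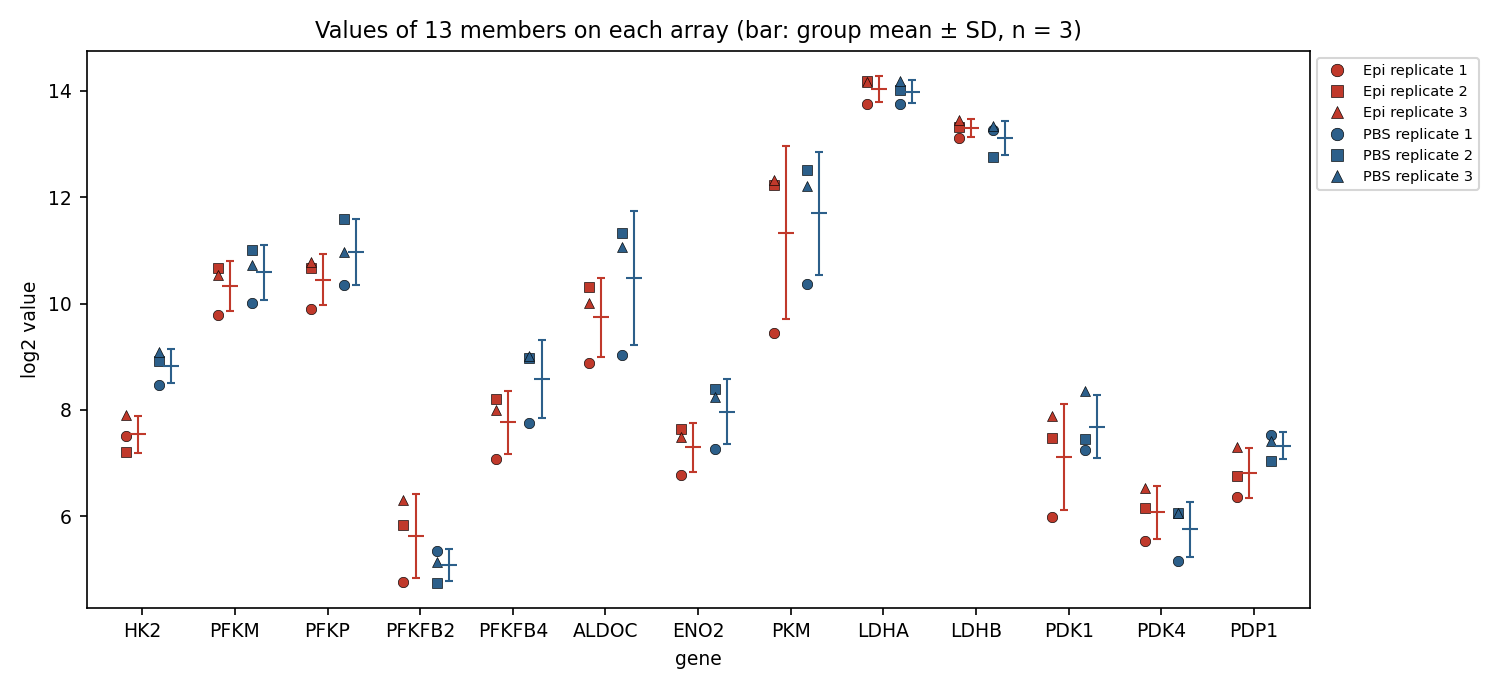
Log2 value (y axis) on each of the 6 arrays of the 13 genes given in full (x axis), Epi in red left of PBS in blue, with a symbol per replicate number and bars for the group mean ± SD (n = 3). HK2 is the gene whose Epi tumors (7.21 to 7.90) all lie below the PBS tumors (8.48 to 9.09), and in most others the replicate 1 arrays (circles) are the lowest of their group.

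Genes of neighbouring routes were counted in lists chosen with earlier results of these data known. Over all genes, 54.3% lay below 0, and with the block 0.32% were called lower and 0.353% higher. Of 25 measured isoforms and side enzymes of glycolysis outside the 32, none passed the threshold in either fit and 13 lay below 0, between SLC2A12, a glucose carrier, at -0.40 and MINPP1, a phosphatase, at 0.27 (median of -0.0067). Of 10 genes of pyruvate import and the pyruvate dehydrogenase complex, 3 lay below 0 and none passed the adjusted threshold. DLD, a shared subunit of that complex, read 10.57, 10.69 and 11.11 in Epi and 10.69, 9.53 and 10.58 in PBS tumors (0.52, adjusted p = 0.893 with the block in limma). Of 11 gluconeogenesis genes, 10 lay below 0 and none passed. PCK2, the mitochondrial enzyme that makes phosphoenolpyruvate, read 7.79, 7.44 and 7.78 in Epi and 8.39, 8.78 and 8.17 in PBS tumors. All its Epi values lay below all PBS values, an order found in 2.22% of all genes (-0.77, standard error 0.22, adjusted p = 0.212 with the block in limma). Of 9 genes of the pentose phosphate pathway, 4 lay below 0 and none passed, with TKT, a transketolase, at 0.58 (11.90, 12.53 and 12.46 in Epi, against 11.45, 11.96 and 11.74 in PBS tumors). Of 17 genes of glycogen and hexose entry, 11 lay below 0 and none passed.

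Among 17 measured hypoxia-inducible genes outside the pathway, 1 was called lower with the block, against 0.32% of all genes, 14 lay below 0, against 54.3%, and 8 were lower in all 3 pairs, against 13.2%. At an unadjusted p under 0.05 with the block, 7 were lower and 1 higher, against 3.09% and 2.12% of all genes. NDRG1, a growth-regulated gene induced by low oxygen, read 7.47, 8.26 and 8.17 in Epi replicates 1 to 3, against 8.10, 10.24 and 10.20 in PBS replicates 1 to 3. With the block it fell by 1.55 on the log2 scale (standard error 0.26, adjusted p = 0.00785 in limma), and without the block its adjusted p was 1.00. With the block and the mean of its probesets it stood at -1.01 (adjusted p = 0.321 in limma), and with the block and quantile normalization its adjusted p was 0.107 in limma. The groups overlapped through PBS replicate 1. BNIP3, a mitophagy receptor, and VEGFA, the vessel growth factor, had -0.89 and -0.80, with adjusted p-values of 0.0548 and 0.120 with the block in limma, and -0.46 and -0.35 with the mean of their probesets. DDIT4, an inhibitor of mTORC1 signaling that stress hormones are also known to induce, was the one gene of the list higher at an unadjusted p under 0.05. It read 7.73, 10.39 and 9.92 in Epi and 7.64, 9.20 and 8.48 in PBS tumors (0.90, adjusted p = 0.169 with the block in limma), and it was named after its values were seen.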

How the data were processed

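The authors deposited log2 values of 49395 probesets on 6 arrays, 3 Epi and 3 PBS, and RMA and Affymetrix Expression Console (no versions) are named in the submitters' processing notes. RMA subtracts background, normalizes the arrays jointly and summarizes the probes of a set, and it is known to understate large differences. The sources used here do not say which arrays were normalized together, and these steps could not be varied.

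Control probesets (102) were dropped. Of the rest, 44988 had 1 gene in GEO's platform annotation, 1832 had several and 2473 were not listed there. For each of 18132 genes the probeset with the highest mean over all 6 arrays was used (11734 genes had several). RefSeq changed 0 symbols. The members and lists were chosen with earlier results of these data known.

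The comparison of Epi with PBS used lmFit and default eBayes of limma 3.58.1 in R 4.3.3, with Benjamini-Hochberg adjustment over the 18132 genes and a threshold of 0.05. The paper names no test for the arrays. Replicate numbers come from the labels, and deviations from the group means correlated at 0.630, 0.627 and 0.453 within numbers 1, 2 and 3, each over 0.1, so that the numbers were also fitted as a block. Because deviations sum to 0 in each group, replicate 1 arrays that stand apart raise all 3 values.

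Values on each array are given for HK2, LDHA, PKM, PFKM and PDK1, for members with an unadjusted p under 0.05 in either fit, and for the 3 largest rises and falls. The same was done for SLC2A1, HK1, GPI, ALDOA, GAPDH and ENO1, as examples of their steps chosen after the values were seen. Genes of other lists are named where past the threshold, or up to 3 per list with the lowest p. Alternatives were the replicate block, the methods' t-test (a 2-tailed Student's t-test per gene), a variance trend with robust estimation, quantile normalization, median centring, a filter on dim genes, the mean of probesets or all probesets, and arrays or pairs left out. The block with all probesets was added after the data were examined. Upstream windows came from a RefSeq table of GRCh38.p14, which matched 27 of 29 members. Precision is limited by the number of arrays.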

Additional observations from a re-analysis of the deposited data

How the results depend on the processing

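Over 22 alternatives, HK2 kept its direction (-1.47 to -0.71) and passed the threshold in 4, all with the replicate block: the block alone, with median centring (adjusted p = 0.0373 in limma), without pair 1 (-1.44, 0.0252) and without pair 3 (-1.33, 0.00476). It did not pass with the block and quantile normalization (0.0527), with the block and all probesets tested (0.0900), without pair 2, or without both replicate 1 arrays and no block (0.166). In the fits without pair 2 or pair 3 the standard error was the same for every gene, so that the spread of each gene did not enter. The number of genes called lower among the 29 was 0 without the block, 1 with it, 1 with it and median centring, 2 without pair 1 (HK2 and ALDOC) and 1 without pair 3, and 1 was called higher without pair 1 (PFKFB2). ALDOC and PFKFB2 were called only there, where the pair with their smallest or opposite difference was left out. Over all genes 0 passed without the block and 0 by the methods' t-test. With the block 122 passed, 56 with quantile normalization, 55 with median centring, 81 with the mean of probesets, 30 probesets when all were tested, and 162, 66 and 129 without pairs 1, 2 and 3. Without both replicate 1 arrays and with no block 16 passed. Leaving out 1 array at a time without a block gave 0 calls each time, and the members' median ranged from -0.36 to 0.02. PFKFB2 has no value with the filter on dim genes.

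Several values changed sign, some of them near 0 and some larger. Without Epi replicate 1, PKM moved from -0.36 to 0.58 and PDK3 from -0.41 to 0.26. SLC2A1 stood at -0.030 without pair 3, HKDC1 at -0.082 without pair 1 or both replicate 1 arrays, and ENO1 at -0.0097 without pair 3. ALDOA stood at 0.013 with quantile normalization with or without the block, 0.029 without pair 2 and 0.036 without pair 3, and ENO3 at 0.080 without pair 2. LDHA stood at -0.019 with the mean of probesets in both fits and at -0.0082 without pair 2, and LDHB at -0.024 without pair 2. With 1 array left out at a time, values ranged from -0.083 to 0.30 for SLC2A1, -0.52 to 0.53 for HKDC1, -0.30 to 0.044 for PFKL, -0.54 to 0.021 for PFKM, -0.57 to 0.048 for PFKFB3, -0.19 to 0.12 for ALDOA, -0.36 to 0.094 for TPI1, -0.0038 to 0.087 for GAPDH and -0.40 to 0.014 for PGK1. They ranged from -0.012 to 0.056 for ENO1, -0.33 to 0.14 for ENO3, -1.03 to 0.58 for PKM, -0.062 to 0.19 for LDHA, -0.0077 to 0.29 for LDHB, -0.20 to 0.30 for PDK2 and -0.85 to 0.26 for PDK3. Without a change of sign, they ranged from -0.83 to -0.21 for PFKP, 0.21 to 0.98 for PFKFB2, -1.23 to -0.47 for PFKFB4, -1.46 to -0.32 for ALDOC, -1.02 to -0.40 for ENO2, -0.96 to -0.011 for PDK1, 0.015 to 0.58 for PDK4 and -0.77 to -0.30 for PDP1. The causes were not tested.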
